A study of Ursus arctos with 12 samples.

Results

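The genes described here make ribosomes: the subunits and initiation factors of RNA polymerase I, and the proteins that modify, cut and fold ribosomal RNA in the nucleolus. They were given as a list of 55 gene symbols and matched by exact symbol in the table of read counts. Of the 55, 54 were matched, each with at least 30 reads summed over the 12 libraries, and the table held 30249 genes in all. RRP36 was not matched by symbol and is not analysed here.

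RNA was sequenced from biopsies of the vastus lateralis, a thigh muscle, of 6 free-ranging brown bears (Ursus arctos) aged 2 to 3 years. Each bear gave a library in winter, during hibernation, and another in summer, when active, so that the groups are 6 winter and 6 summer libraries of the same 6 animals. No drug, diet or genotype was compared, and bears are named by the number in their labels. What differs between winter and summer (fasting, inactivity, body temperature, date of capture) cannot be told apart in this design.

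Ribosome production starts when RNA polymerase I, brought to the ribosomal DNA by UBTF, the TAF1 proteins of selectivity factor SL1 and the initiation factor RRN3, transcribes a long precursor RNA. Small nucleolar ribonucleoproteins (snoRNPs) modify this RNA, the small subunit processome assembles on it while it is still being made, and further factors bring the small and large subunits to export. It is among the most costly activities of a cell, and in skeletal muscle it is known to respond to loading, nutrition and mTOR signalling.

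Between 16742406 and 32140160 reads per library were counted on genes. Levels are given as CPM, the count of a gene divided by the library total and scaled by edgeR's TMM method, and since they are not divided by transcript length they are not compared between genes. The muscle fibre markers were abundant in every library, with a summed level of 114151 to 199822 CPM in summer and 126122 to 161675 CPM in winter. Of these 8 markers 1 was called higher and 2 lower in winter, with log2 fold changes from −1.02 to 0.65, which the sum does not show. Markers of other cells moved with season too: 4 of 5 fibroblast markers were lower in winter (summed 3063 to 7897 CPM in summer, 228 to 1282 in winter), as were 4 of 5 endothelial (577 to 916 and 381 to 449), 3 of 5 macrophage (51.4 to 103 and 36.3 to 66.6) and 4 of 5 proliferation markers (23.4 to 61.1 and 15.6 to 31.5). Of the adipocyte markers 1 of 5 was lower (297 to 1376 and 216 to 459), of the smooth muscle markers 2 of 4 (100.4 to 159 and 66.3 to 131), and of the satellite cell markers 2 of 4 with 1 higher (16.5 to 33.6 and 14.6 to 29.5). The only marker with libraries at 0 reads was LEP, in 4 libraries. The part of these shifts in the differences below was not tested, and in whole biopsies fewer cells of a type and less RNA per cell cannot be told apart.

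More of the ribosome production genes rose than fell in hibernation. At an adjusted p below 0.05, 21 of the 54 genes were higher in winter and 2 were lower, and 31 were not called. Over all 17290 genes tested, 40.8% were called, 19.6% higher and 21.2% lower. The rises were moderate, with log2 fold changes from 0.34 for UTP15 to 1.06 for NOP53. The 54 genes had a median change of 0.16 on the log2 scale, and all genes tested had −0.01. Adjusted p values here come from edgeR's quasi-likelihood test of winter against summer with the bear as a block, adjusted by Benjamini-Hochberg over all genes tested.

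In 6 of 6 bears, 19 of the 54 genes were higher and 2 lower, where 18.4% of all genes were higher and 19% lower in every bear. For 15 genes all winter libraries lay above all summer libraries, and for 0 all lay below, against 9.12% and 8.21% of all genes. At a stricter limit, with adjusted p under 0.01 and at least a 1.3-fold difference either way, 16 were higher and 1 was lower, against 12.2% and 13.4% of all genes. Fitted without the bear as a block, 22 were higher and 1 lower (19.6% and 19.9% of all genes). Without the libraries of bears 1317 and 1509, which stood apart most often, 22 were higher and 2 lower (18.4% and 19.4% of the 16383 genes tested in that fit). The 2 lower genes in that fit were POLR1D and FBL, and in the main fit POLR1D and POLR1C.

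**Figure D1:**
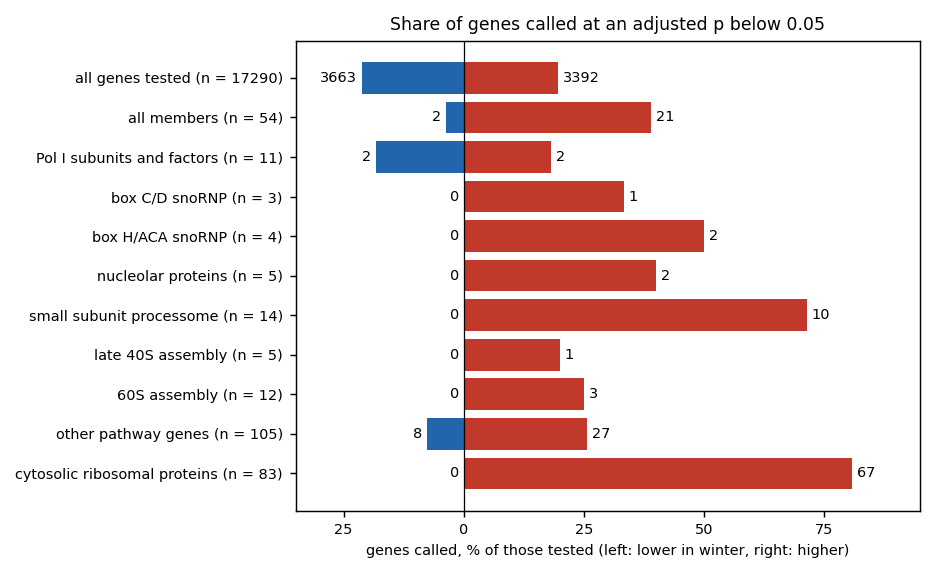
Share of genes called at an adjusted p below 0.05, in percent of the genes tested, with bars to the right for genes higher and to the left for genes lower in winter; the number at each bar is the count of genes. The small subunit processome had 10 of 14 members higher, and RNA polymerase I had 2 higher and 2 lower of 11.

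The plot of fold changes by role shows how unevenly these calls fell. Of the 14 tested members of the small subunit processome, 10 were higher (71.4%) and 0 lower, with a median log2 fold change of 0.45. That count fell to 7 at the stricter limit, with library totals in place of TMM, and without bear 1305, 1316 or 1512. RNA polymerase I with its factors had 2 higher and 2 lower of 11 (18.2% each), with a median of −0.05. Those shares are near the 19.6% and 21.2% of all genes. Of the 12 proteins of large subunit assembly, 3 were higher (25%) and 0 lower (median 0.07). These are counts, and the roles were not tested against each other.

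**Figure D2:**
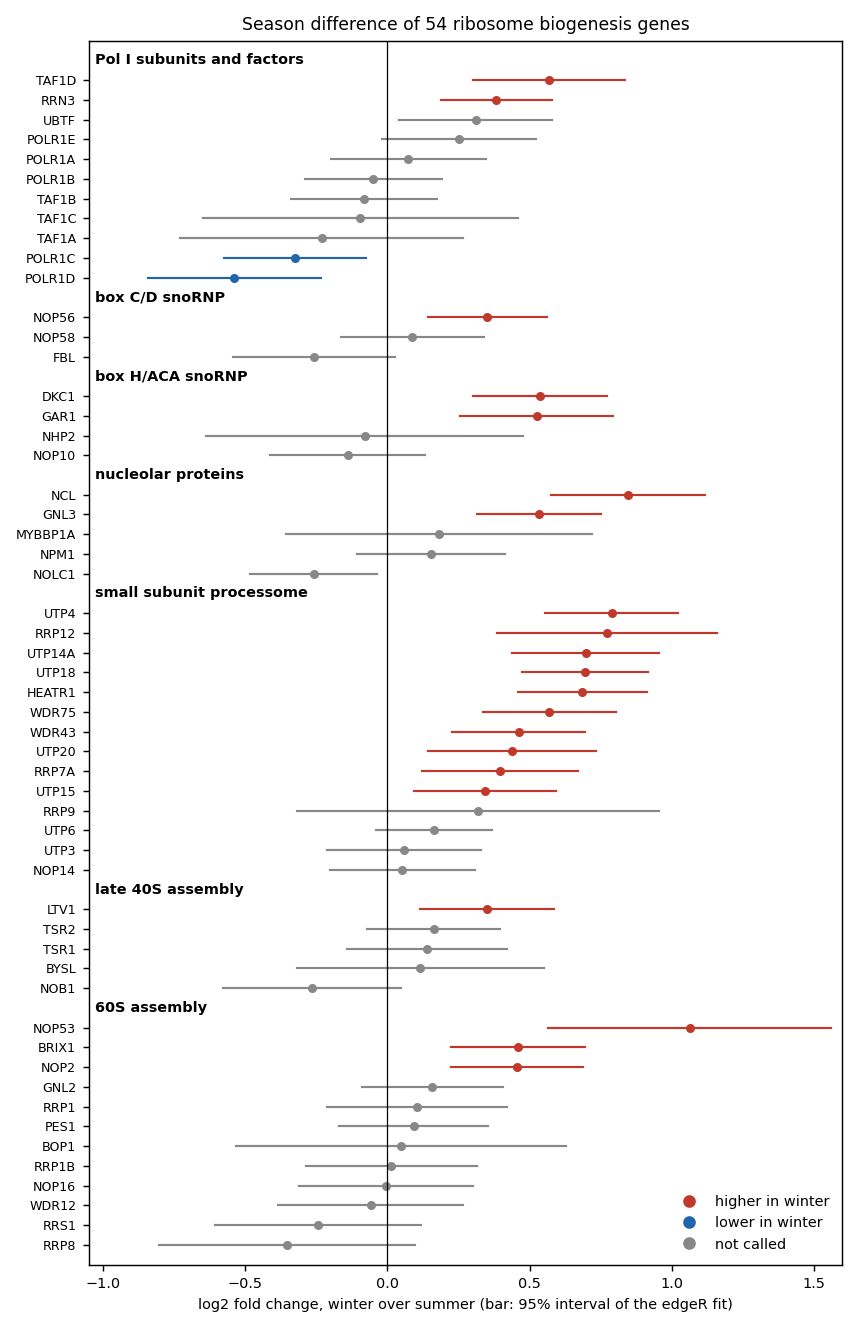
Log2 fold change of winter over summer for each of the 54 genes, grouped by role; points are the edgeR estimates and bars their 95% intervals, coloured by call. Each of the 14 tested members of the small subunit processome lies above 0, although UTP3 and NOP14 fall below it when scaled by library totals. POLR1C and POLR1D are the only genes called lower.

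The small subunit processome is the large particle that forms on the precursor RNA and makes the cuts that free the small subunit RNA. Its 14 tested members held 10 of the 21 rises, the largest count of any role. The 29 further processome proteins outside the list of 54 did not share this. Of them 7 were higher and 3 lower (24.1% and 10.3%, beside 19.6% and 21.2% of all genes), with a median of 0.08. UTP4, a WD-repeat protein of the first processome module to bind, had 9.14 to 10.9 CPM in summer (median 9.98) and 14.9 to 19.4 in winter (median 17.6). Every winter library lay above every summer library. The log2 fold change was 0.79 ± 0.11 (SE, adjusted p = 0.000286), a fold of 1.73, with single bears from 0.60 to 0.95. HEATR1, the scaffold of the same module, had 13.5 to 17.8 CPM in summer (median 14.2) and 20.6 to 25.2 in winter (median 24.0). Its groups did not overlap either, and its log2 fold change was 0.69 ± 0.10 (SE, adjusted p = 0.000547). WDR75 of that module went from 18.2 to 24.4 CPM (median 20.7) to 26.9 to 39.0 (median 29.6), again without overlap, at 0.57 ± 0.11 (SE, adjusted p = 0.0018). WDR43 rose by 0.46 (adjusted p = 0.00565) and UTP15 by 0.34 (adjusted p = 0.0315). All 5 listed proteins of this module, which also links the processome to transcription of the ribosomal DNA, were thus called higher, although UTP15 was higher in 5 of 6 bears and lost the call without bear 1305 (adjusted p = 0.0946), 1316 (0.0563), 1317 (0.0632) or 1512 (0.0991). NOL11, a further protein of the module, was neither on the list of 54 nor counted among the 29. It was higher in 6 of 6 bears but not called, at 0.19 (95% interval −0.03 to 0.42, adjusted p = 0.152).

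UTP18, a WD-repeat protein of the second module, had 18.0 to 24.4 CPM in summer (median 20.004) and 29.3 to 35.2 in winter (median 34.0). No winter library fell into the summer range. Its log2 fold change was 0.69 ± 0.10 (SE, adjusted p = 0.000431). UTP6, its partner in that module, was higher in 6 of 6 bears but by only 0.11 to 0.22, and was not called at 0.16 (95% interval −0.04 to 0.37, adjusted p = 0.181). UTP14A, which activates the helicase that releases the U3 snoRNA, had 22.5 to 29.5 CPM in summer (median 26.2) and 33.7 to 47.6 in winter (median 43.7). Its log2 fold change was 0.70 ± 0.12 (SE, adjusted p = 0.00105) without overlap, though bear 1512 rose by only 0.19 and the other bears by up to 0.97.

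RRP12, a HEAT-repeat protein that accompanies pre-ribosomes to export, combined a high fold change with a wide spread. It had 15.6 to 30.3 CPM in summer (median 20.03) and 25.6 to 51.1 in winter (median 35.5), with a log2 fold change of 0.77 ± 0.18 (SE, adjusted p = 0.00536). Bear 1509 went the other way, with 30.3 CPM in summer and 25.6 in winter, and the log2 fold change without it was 0.98. UTP20, a long scaffold protein, rose by 0.44 (adjusted p = 0.0227) in 5 of 6 bears, and lost the call without bear 1305 (adjusted p = 0.0898), 1316 (0.0591) or 1512 (0.0537). RRP7A rose by 0.40 (adjusted p = 0.026) in 6 of 6 bears without overlap, but it lost the call without bear 1305 (adjusted p = 0.0528), 1316 (0.0738), 1317 (0.05002), 1511 (0.0607) or 1512 (0.0567). The 3 other members were UTP3 at 0.06 (95% interval −0.21 to 0.33), NOP14 at 0.05 (−0.20 to 0.31) and RRP9, a protein of the U3 snoRNP, at 0.32 (−0.32 to 0.95), none of which was called. RRP9 had as few as 28 reads in a library and the widest interval of the 54 genes, and a change of the size seen in UTP4 lies inside that interval.

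**Figure D3:**
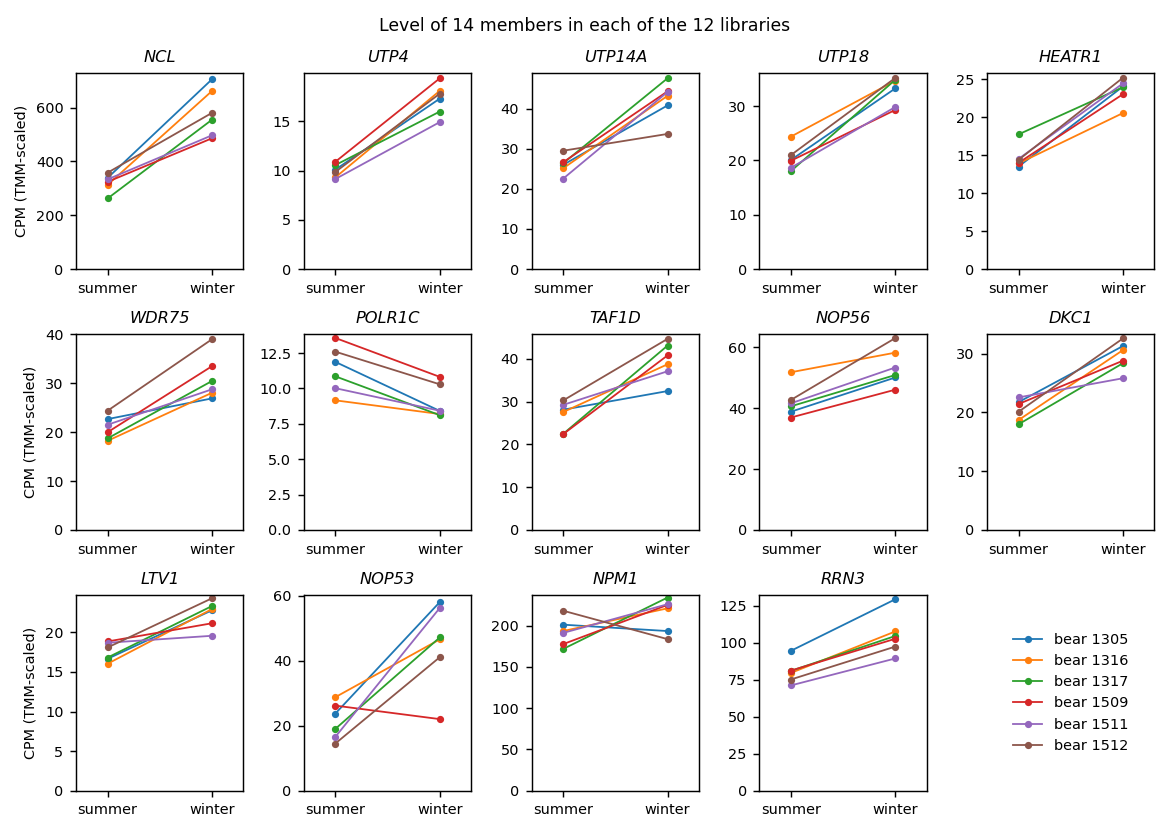
CPM of 14 genes in summer and winter, with a line joining the libraries of each bear and each vertical axis starting at 0. The lines of NCL, UTP4, UTP18 and HEATR1 all rise with no overlap between seasons, POLR1C falls in all 6 bears, and NOP53 rises in every bear but 1509.

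Of the nucleolar proteins, nucleolin rose most. NCL, an abundant nucleolar RNA-binding protein that acts from ribosomal DNA transcription to early processing, had 262 to 358 CPM in summer (median 329) and 486 to 706 in winter (median 568). The lowest winter library stood well above the highest summer library. Its log2 fold change was 0.85 ± 0.12 (SE, adjusted p = 0.000424), a fold of 1.799, with single bears from 0.58 to 1.08 and between 6041 and 17844 reads per library. GNL3, also known as nucleostemin, a nucleolar GTP-binding protein, had 15.2 to 18.0 CPM in summer (median 16.6) and 22.8 to 27.1 in winter (median 23.5), with a log2 fold change of 0.53 ± 0.10 (SE, adjusted p = 0.00179) and no overlap.

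The other 3 nucleolar proteins were not called. NPM1, the nucleolar chaperone nucleophosmin, had 172 to 218 CPM in summer (median 192) and 184 to 234 in winter (median 223), was higher in 4 of 6 bears, and had a log2 fold change of 0.15 (95% interval −0.11 to 0.41, adjusted p = 0.321). This interval lies below that of NCL, from 0.58 to 1.12. NPM1 has many processed copies in mammalian genomes, and how reads shared with such copies were counted is not given in the sources used here. NOLC1, which helps to assemble snoRNPs, was lower in 6 of 6 bears at −0.26 (95% interval −0.48 to −0.04, adjusted p = 0.0605). MYBBP1A, a nucleolar regulator of transcription, was at 0.18 (adjusted p = 0.577). In bear 1509 it lay at 9.22 CPM in winter against 18.8 to 25.5 in the other winter libraries, and without this bear it was called at 0.48 (adjusted p = 0.00851).

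Of the 4 proteins of the box H/ACA snoRNP 2 were called higher, and of the 3 of the box C/D snoRNP 1, with 0 lower in each. Over all genes tested, 19.6% were higher and 21.2% lower, and lists this short were not tested against those shares. Proteins of a particle were not tested against each other. In the box H/ACA particle, which makes pseudouridine, the catalytic subunit DKC1 (dyskerin) had 18.0 to 22.5 CPM in summer (median 20.8) and 25.8 to 32.6 in winter (median 29.7). Its groups did not overlap, and its log2 fold change was 0.54 ± 0.11 (SE, adjusted p = 0.0026). GAR1 rose likewise by 0.53 ± 0.12 (SE, adjusted p = 0.00604) in 6 of 6 bears without overlap, from a median of 22.9 to 30.7 CPM. NHP2 and NOP10, which bind DKC1 in the same particle, were higher in 3 of 6 bears each and were not called, at −0.08 (95% interval −0.64 to 0.48) and −0.14 (−0.41 to 0.13). The interval of NOP10 lies wholly below that of DKC1, from 0.30 to 0.77, while that of NHP2 overlaps the interval of DKC1.

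In the box C/D particle, which methylates the ribose of ribosomal RNA, NOP56 had 36.9 to 51.8 CPM in summer (median 41.1) and 46.1 to 63.0 in winter (median 52.1). The seasons overlapped, yet each bear was higher in winter, and the log2 fold change was 0.35 ± 0.09 (SE, adjusted p = 0.0129). With library totals in place of TMM it was not called (adjusted p = 0.079). NOP58, with which it pairs, was at 0.09 (95% interval −0.16 to 0.34), and this interval overlaps that of NOP56, from 0.14 to 0.56. The methyltransferase FBL (fibrillarin) was lower in 5 of 6 bears at −0.26 (95% interval −0.54 to 0.03, adjusted p = 0.134). In bear 1317 it lay at 31.4 CPM in summer against 63.2 to 72.6 in the other summer libraries, and without this bear FBL was called lower at −0.38 (adjusted p = 0.0191).

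The genes of RNA polymerase I itself did not move together. The catalytic subunits POLR1A and POLR1B, which form the active centre, were at 0.07 (95% interval −0.20 to 0.35) and −0.05 (−0.29 to 0.19) and were not called. POLR1C and POLR1D, which form the assembly core that RNA polymerases I and III share, were the only genes of the 54 called lower. POLR1D had 21.2 to 35.7 CPM in summer (median 30.5) and 16.2 to 22.0 in winter (median 20.5), with a log2 fold change of −0.54 ± 0.14 (SE, adjusted p = 0.00996). The fall was seen in 5 of 6 bears, and bear 1317 had 21.2 CPM in summer and 22.0 in winter. POLR1C had 9.16 to 13.6 CPM in summer (median 11.4) and 8.11 to 10.8 in winter (median 8.42). The ranges overlapped, but it was lower in 6 of 6 bears, at −0.33 ± 0.11 (SE, adjusted p = 0.0401). That call was not stable: without the bear as a block the adjusted p was 0.0581, and it was above the threshold whichever bear was left out, from 0.0506 without bear 1316 through 0.0587 (1509), 0.0617 (1511), 0.0857 (1512) and 0.0918 (1317) to 0.103 without bear 1305. POLR1E, a subunit of the arm that acts in initiation, was not called at 0.25 (95% interval −0.02 to 0.52, adjusted p = 0.126), and was called without bear 1316 (adjusted p = 0.0255).

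Among the initiation factors, RRN3 (TIF-IA), which makes the polymerase competent to start, had 71.1 to 94.4 CPM in summer (median 80.2) and 89.3 to 129 in winter (median 104). The seasons overlapped, but the rise was much the same in every bear, from 0.33 to 0.45 on the log2 scale, and the log2 fold change was 0.38 ± 0.09 (SE, adjusted p = 0.00605). TAF1D, a subunit of SL1 whose introns carry several snoRNAs in other mammals, had 22.4 to 30.3 CPM in summer (median 27.8) and 32.5 to 44.7 in winter (median 39.8). Its groups did not overlap, and its log2 fold change was 0.57 ± 0.12 (SE, adjusted p = 0.00376).

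The other SL1 subunits were not called, with TAF1A at −0.23 (95% interval −0.73 to 0.27), TAF1B at −0.08 (−0.34 to 0.18) and TAF1C at −0.10 (−0.65 to 0.46). TAF1A and TAF1C had as few as 31 and 25 reads in a library, and the part of depth in their wide intervals was not tested. UBTF, which keeps ribosomal DNA in an open state, was higher in 6 of 6 bears at 0.31 (95% interval 0.04 to 0.58) but missed the threshold (adjusted p = 0.063). Its adjusted p was 0.0347 without the bear as a block and 0.0463 without bear 1509. Bears 1305 and 1316, at 85.8 and 81.1 CPM in winter, stood above the other winter libraries at 55.1 to 65.9.

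**Figure D4:**
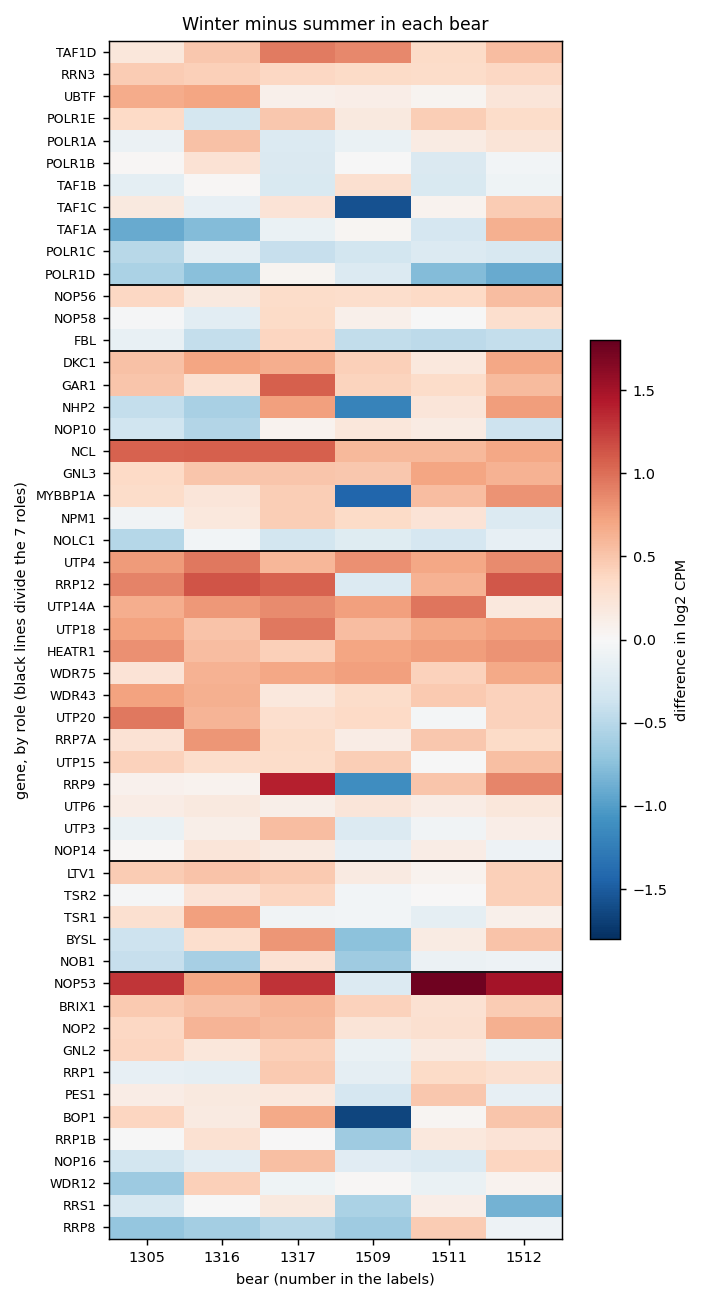
Winter minus summer difference in log2 CPM of each gene (lines) in each bear (columns), red for higher and blue for lower in winter. The small subunit processome block is red in nearly every cell, while bear 1509 is blue for BOP1, TAF1C, MYBBP1A, NHP2 and RRP9.

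Of the late factors of the small subunit, LTV1, which helps to assemble its head, had 16.0 to 18.8 CPM in summer (median 17.4) and 19.6 to 24.3 in winter (median 22.9). The groups did not overlap, and the log2 fold change was 0.35 ± 0.11 (SE, adjusted p = 0.0223). It lost the call without bear 1305 (adjusted p = 0.0749), 1316 (0.0593), 1317 (0.0582) or 1512 (0.0635). The others were not called. NOB1, the endonuclease that makes the last cut of the small subunit RNA, was lower in 5 of 6 bears at −0.27 (95% interval −0.58 to 0.05). BYSL was at 0.12 (−0.32 to 0.55), TSR1 at 0.14 (−0.14 to 0.42) and TSR2, the chaperone of a ribosomal protein, at 0.16 (−0.07 to 0.40).

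For the large subunit, NOP53, which recruits the helicase of the exosome to its precursor, had the highest fold change of the 54 genes and among the widest spreads. It had 14.5 to 28.8 CPM in summer (median 21.4) and 22.0 to 58.0 in winter (median 46.8). The log2 fold change was 1.06 ± 0.23 (SE, adjusted p = 0.00378), a fold of 2.09. In 5 of 6 bears it was higher, by up to 1.76, and bear 1509 had 26.2 CPM in summer and 22.0 in winter. Without bear 1509 it was 1.32. BRIX1, an early assembly factor, rose by 0.46 ± 0.11 (SE, adjusted p = 0.00619), and NOP2, the methyltransferase of the large subunit RNA, by 0.46 ± 0.11 (SE, adjusted p = 0.00584), each bear being higher and the seasons not overlapping. RRS1, which helps to bring the small RNA of the large subunit into the particle, was at −0.24 (95% interval −0.61 to 0.12) and was not called.

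None of the 3 proteins of the PeBoW complex, which is needed to process the large subunit RNA, was called (edgeR, each with an unadjusted p above 0.05). Over all genes tested, 40.8% were called. PES1 was at 0.09 (95% interval −0.17 to 0.35), BOP1 at 0.05 (−0.53 to 0.63) and WDR12 at −0.06 (−0.38 to 0.26). BOP1 was higher in 5 of 6 bears and in bear 1509 lay at 3.59 CPM in winter against 8.05 or more in the other winter libraries. GNL2 at 0.16, RRP1 at 0.11, RRP1B at 0.01, NOP16 at −0.01 and RRP8, a methyltransferase that also acts on ribosomal DNA chromatin, at −0.35 (adjusted p = 0.19) were not called either.

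Both the size of the change and its precision differed among the 54 genes. The standard errors of the 23 called genes had a median of 0.11 on the log2 scale, and those of the 31 not called 0.13. Log2 fold changes, without their sign, were 0.33 to 1.06 for the called genes and 0.01 to 0.35 for the others. Of the 31 genes not called, 12 had a 95% interval within 0.4 of 0, so that a rise as large as that of NCL or UTP4 lies outside it. For 6 the interval reached 0.5 or more above 0 and for 8 it reached 0.5 or more below. The 7 with a standard error of 0.2 or more were TAF1A, TAF1C, NHP2, MYBBP1A, RRP9, BOP1 and RRP8. Their lowest count in a library ran from 25 reads for TAF1C to 167 for MYBBP1A. What widened these intervals was not tested.

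Bears differed in how many of the 54 genes rose. The number higher in winter was 45 in bear 1317, 40 in bear 1512, 39 in bears 1316 and 1511, 33 in bear 1305 and 28 in bear 1509. Bear 1509 had a median difference of 0.03 over the 54 genes and the remaining bears 0.17 to 0.39, while the median of all genes stayed between −0.03 and 0.01 in each. Bear 1509 was nonetheless higher for 19 of the 21 genes called higher, as was bear 1511, and the other 4 bears for 21 of 21.

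**Figure D5:**
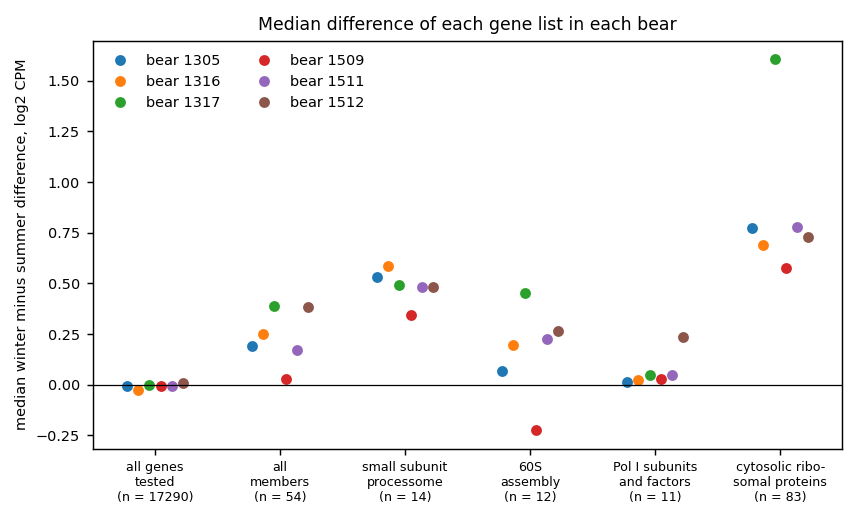
Median winter minus summer difference in log2 CPM of 6 gene lists, with a point for each bear. The small subunit processome lies between 0.34 and 0.59 in every bear, whereas the large subunit assembly factors (60S assembly) run from −0.22 in bear 1509 to 0.45 in bear 1317.

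Of the 105 other genes of ribosome production that were tested, 27 were higher and 8 lower (25.7% and 7.62%, beside 19.6% and 21.2% of all genes), with a median log2 fold change of 0.13. Among them were 10 higher and 0 lower of 37 further factors of the large subunit, 7 higher and 3 lower of 29 further processome proteins, 5 higher and 2 lower of 15 genes of the exosome and its cofactors, 2 and 2 of 9 late small subunit factors, and 2 and 1 of 9 snoRNP genes. A list of further polymerase I subunits and factors linked to its transcription, which held NOL11, gave 1 and 0 of 6. Members of the complex that cuts and trims the spacer between the large subunit RNAs stood out by size. LAS1L, its endonuclease, went from 31.1 to 45.6 CPM (median 35.4) in summer to 79.2 to 98.6 (median 84.9) in winter, at 1.25 ± 0.10 (SE, adjusted p = 2.25e-05). NOL9, its kinase, went from 17.9 to 25.6 (median 19.6) to 41.3 to 64.1 (median 50.8), at 1.38 ± 0.11 (SE, adjusted p = 1.63e-05). Neither overlapped between seasons. PELP1 and TEX10, which belong to the same complex, were also called higher at 0.96 (adjusted p = 0.0136) and 0.34 (adjusted p = 0.0333), and WDR18 at 0.35 (adjusted p = 0.341) and SENP3 at −0.16 (adjusted p = 0.282) were not.

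The largest rise among these 105 genes was that of PIH1D1, a subunit of the chaperone complex that assembles box C/D snoRNPs, at 1.795 ± 0.15 (SE, adjusted p = 2.22e-05), from 6.51 to 12.2 CPM in summer to 19.8 to 41.6 in winter. TRMT112, the partner that stabilises several methyltransferases, rose by 1.42 (adjusted p = 0.00446) in 5 of 6 bears. IMP4, a protein of the U3 snoRNP, at −0.76 (adjusted p = 0.00295), and ABT1 at −0.71 (adjusted p = 0.00832) were lower in 6 of 6 bears each.

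Among subunits of the other RNA polymerases calls went both ways, in short lists that were not tested against all genes. Of 11 subunits of RNA polymerase III, 2 were higher and 4 lower (18.2% and 36.4%, beside 19.6% and 21.2% of all genes). POLR3F was at 0.99 (adjusted p = 0.000115), POLR3GL at −1.09 (adjusted p = 0.000741) and POLR3B at −0.82 (adjusted p = 0.0028), each without overlap between seasons. Of 7 subunits of polymerase II, 3 were higher and 0 lower (42.9% and 0%), with the same counts in edgeR at an unadjusted p below 0.05. Of 4 subunits common to the 3 enzymes 0 were higher and 1 was lower (0% and 25%), again with the same counts at that limit. That gene, POLR2F, lower in 6 of 6 bears at −0.34 (adjusted p = 0.0259), was named after its values were seen, and without the bear as a block its adjusted p was 0.0577.

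Of 11 genes for regulators of ribosomal RNA synthesis, 3 were higher and 1 lower (27.3% and 9.09%, beside 19.6% and 21.2% of all genes). Without the bear as a block these were 3 and 2 (19.6% and 19.9% of all genes). MYC, a transcription factor that drives many ribosome production genes, was not called at 0.10 (95% interval −0.37 to 0.56, adjusted p = 0.742). MTOR, the growth-controlling kinase, fell in each of the 6 bears, at −0.73 ± 0.11 (SE, adjusted p = 0.000642), from 103 to 177 CPM in summer to 70.3 to 90.9 in winter.

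The cytosolic ribosomal proteins, the cargo of this machinery, gave 67 higher and 0 lower of 83 with edgeR (for unadjusted p below 0.05, 70 and 0). The shares were 80.7% and 0%, beside 19.6% and 21.2% of all genes. Their median was 0.88 on the log2 scale against 0.16 for the 54 genes. Their median was higher than that of the 54 genes in 6 of 6 bears, and the difference between these lists was not tested.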

How the data were processed

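Muscle libraries of 6 bears in winter and summer were compared. The authors prepared stranded poly-A libraries, aligned single-end reads to the ASM358476v1 assembly with TopHat2 2.1.1 and counted reads per gene on the opposite strand with featureCounts 1.6.2. The deposited values are raw counts per gene, not normalized by the authors, with 0 lines lacking a gene name. Which libraries shared a sequencing lane is not given in the sources used here.

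The study's own filter, at least 30 reads summed over the 12 libraries, kept 17290 genes. Counts were scaled by TMM and tested with glmQLFit and glmQLFTest of edgeR 4.0.16 (limma 3.58.1, DESeq2 1.42.0, R 4.3.3). Season and bear were terms, and an adjusted p below 0.05 was a call. The study's methods name DESeq2, used here as an alternative. Intervals are 95% intervals from the moderated fit, and log2 CPM used a prior count of 2. Depth was 16742406 to 32140160 reads. Since the bear is a term, the intervals cover the spread between bears in the winter minus summer difference, not in level. The part of depth in them was not tested.

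Libraries were paired by bear, since per the labels each bear gave both. After subtracting season means, the 2 libraries of a bear correlated at 0.09 to 0.34. Those of different bears correlated at −0.21 to 0.14, with a median of −0.06. The lowest value for a bear, 0.09 in bear 1509, lies within that range, so the correlations do not set its pair apart. The same analysis was run on simulated counts. In these far fewer genes changed than were called here, and by larger folds than the rises of all 54 genes but NOP53. That run therefore cannot show how well changes of the size seen here are called. The 54 genes and all lists were chosen with earlier results of these data known. Values are given for the 6 largest rises and the largest falls called with the same sign in 6 bears, of which there was 1, the lowest p of each role, and the 3 highest mean CPM (NCL, NPM1 and RRN3). For other pathway genes these are the 5 largest rises and 5 largest falls, and every other such gene named was chosen after its values were seen. Alternatives were no replicate block, RLE, library totals, no filter, filterByExpr, DESeq2, limma voom, a stricter threshold and each bear left out. Leaving out bears 1317 and 1509 together was added after seeing the data. A planned search of promoters for motifs was not run, since no sequence was used here.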

Additional observations from a re-analysis of the deposited data

Results flagged for a closer look

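In 15 of the 108 sets of 6 libraries (54 genes in 2 seasons), the lowest or highest library stood apart, its gap to the next exceeding Dixon's 95% limit as a share of the range on the log2 CPM scale. Chance gives about 1 in 20 sets. Of the 7 winter cases, 6 were the winter library of bear 1509, at the low end. They were BOP1 at 3.59 CPM (others at 8.05 or above), MYBBP1A at 9.22 (18.8 to 25.5), NOP53 at 22.0 (41.1 to 58.0), RRP1B at 10.4 (14.4 to 17.4), RRP9 at 1.55 (3.22 to 4.45) and TAF1C at 1.38 (3.35 to 4.93). The other was NOP16 in bear 1512, at 29.2 CPM (21.5 to 22.8).

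Of the 8 summer cases, 5 were the summer library of bear 1317. It was lowest for FBL at 31.4 CPM (others 63.2 to 72.6), GAR1 at 14.5 (21.1 to 24.7), NOP16 at 14.7 (22.3 to 28.1) and UTP3 at 12.7 (17.3 to 19.0), and highest for HEATR1 at 17.8 (13.5 to 14.5). The summer library of bear 1316 was lowest for NOLC1 at 24.9 CPM (32.0 to 36.1) and highest for POLR1E at 30.2 (20.9 to 23.5) and RRP1 at 10.02 (6.57 to 6.99). Without bears 1317 and 1509 the genes called numbered 22 higher and 2 lower of 54 (18.4% and 19.4% of all genes), the lower ones being POLR1D and FBL.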

How the results depend on the processing

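Of the 23 genes called, 17 kept the call in each of the 15 other fits, and none of the 23 changed direction. The calls that were lost were those of POLR1C, NOP56, UTP15, UTP20, RRP7A and LTV1. Genes called lower numbered 1 of 54, not 2, with no replicate block, with no filter, in DESeq2 with the bear as a block, at the stricter threshold and without bear 1305, 1316, 1509, 1511 or 1512. With library totals 16 were higher and 3 lower. Processome members called higher numbered 7, not 10, with library totals, at the stricter threshold and without bear 1305, 1316 or 1512. They numbered 8 without bear 1317 and 9 with no filter or without bear 1511. The processome members that lost the call with library totals were UTP15, UTP20 and RRP7A. With 1 bear left out, 18 to 24 of the 54 were called, 17 to 23 higher and 1 to 2 lower. All genes called numbered 5658 to 7219, 2619 to 3542 higher and 3001 to 3677 lower, and other ribosome biogenesis genes 26 to 38, 22 to 30 higher and 4 to 8 lower. At the stricter threshold 4438 genes were called (2115 higher, 2323 lower) and 17 other ribosome biogenesis genes (13 higher, 4 lower). With library totals in place of TMM, which moved the median of all genes to −0.08, 17 other ribosome biogenesis genes were higher. The bear as a replicate block changed the calls of POLR1C and UBTF among the 54. Without the block UBTF was called at 0.32 and POLR1C was not at −0.33. Among the other lists POLR2F and NIFK and the markers DCN and TAGLN were then not called, POLR3A, NAF1, MYCN and LEP were called, and 65 in place of 67 ribosomal proteins were higher.

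Directions changed only among genes that were not called. With library totals the log2 fold change was −0.0045 for POLR1A, −0.021 for UTP3, −0.026 for NOP14, −0.033 for BOP1 and −0.066 for RRP1B. NOP16 was 0.0019 with RLE, 0.0063 with filterByExpr and 0.0019 in DESeq2 with the block. Without bears 1317 and 1509 POLR1B was 0.0020 and TAF1C 0.15. With 1 bear left out the values ran from −0.016 to 0.14 for POLR1A, −0.21 to 0.18 for TAF1C, −0.25 to 0.14 for NHP2, −0.039 to 0.13 for UTP3, −0.020 to 0.29 for BYSL, −0.078 to 0.36 for BOP1, −0.15 to 0.050 for WDR12, −0.11 to 0.049 for NOP16 and −0.036 to 0.15 for RRP1B. NOLC1 was called lower with library totals (adjusted p = 0.0477). The causes were not tested. TAF1A, TAF1C, RRP8 and RRP9 had the fewest reads, 25 to 34 in their shallowest libraries, and how far depth limits them was not separated from the spread between bears.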
